A study of Mus musculus with 4 samples.

Results

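The 39 genes described here belong to the intestinal epithelium, and their transcripts were followed in fibroblasts in which the intestinal transcription factor CDX2 had been switched on for 6 h. The members were taken by gene symbol from a fixed list of intestinal genes, with the best-covered transcript standing for each gene, out of 25177 gene symbols in the authors' deposited table. All 39 symbols were found there. Nuclear RNA came from NIH-3T3, an established mouse embryonic fibroblast line, in a derivative that stably carries an H2B-mCherry nuclear marker, the rtTA3G transactivator and a CDX2 transgene under the TRE3G promoter, so that doxycycline turns the transgene on. The 2 Dox libraries came from cells given doxycycline for 6 h and the 2 noDox libraries from the same line given solvent alone, with 500000 cells in each, per the labels' protocols. Both groups therefore carry all 3 constructs, and both grew in serum-containing medium with puromycin. The dose was 500 ng/ml by the extraction protocol but 500 ng per microlitre by the treatment protocol. The labels do not say whether the line is a clone or whether replicate libraries stem from different cultures, and the p-values may thus reflect technical spread alone. The comparison addresses which transcripts differ once CDX2 is induced in a cell type that does not normally express it. No line without the CDX2 transgene was given doxycycline in these samples. Differences due to the drug or to the transactivator therefore cannot be told apart from those due to CDX2. The noDox libraries are not free of Cdx2 transcript, at 4.96 CPM.

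CDX2 is a homeobox factor that, with its paralogue CDX1, sets up and maintains the identity of intestinal epithelial cells. In that epithelium it acts beside HNF4A and other factors on genes of the brush border, of digestion, of cell adhesion and of mucus, and it binds A/T-rich sites of the TTTATG type. Absorptive cells of the villus carry the digestive enzymes on a brush border of villin-filled microvilli, goblet cells secrete mucin, and stem cells at the crypt base renew both.

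The authors' deposited table gives 1 fold change and 1 mean level per transcript and no value per library. Its fold changes were taken as Dox over noDox, the direction in which Cdx2 is higher. Counts per library were worked out from it for 21 of the 22 members with reads. Low levels there are whole-number products over the 4 libraries of each count plus 0.5, in units of 0.5. The libraries form 2 pairs of 1 Dox and 1 noDox library each in the fit behind the table. They are called the first and the second pair, since the pairs could not be tied to the labels' replicate numbers. Counts come in steps of 0.5, as when each end of a read pair adds 0.5, on the premise that 0.5 was added to every count before the logarithm; with another offset they would scale with it. The effective library size was about 45700000 counts as a geometric mean, and each Dox library was larger than its noDox partner, by 1.3-fold in the first pair and 1.03-fold in the second. Counts are printed unscaled, while differences within a pair are log2 differences after adding 0.5 to each count and scaling to library size. Where a count is 0 such a difference depends on the offset. A count of 0 in a library allows up to 3 counts there, or 0.0656 CPM (the table's scale, counts relative to library size), for counting error alone.

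Most of the intestinal genes were silent or nearly so with and without doxycycline. Of the 39 members, 17 had no read in any of the 4 libraries, 17 had reads but a geometric mean under 10 counts per library (0.23 CPM), and 5 reached that level and were tested. Members without reads made up 43.6% of the list, against 29.7% of all genes, and tested members made up 12.8%, against 49.1% of all genes. The fibroblast markers behaved otherwise: 11 of 12 were tested, at 5.64 to 2090 CPM not corrected for length, and Fap was without reads. Their summed level was 5630 CPM in Dox and 6810 CPM in noDox libraries. Among these 11 markers 1 was higher and 7 lower in the authors' deposited table, beside 11.3% higher and 13.4% lower over all tested genes. With standard errors widened to the spread of t, 1 was higher and 2 lower. The part of these differences in the members' values was not tested.

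Of the 12355 tested genes, 24.7% passed an adjusted p of 0.05 by the authors' deposited table, 11.3% higher and 13.4% lower, and these are the genes called here. Of the 5 tested members 2 were called, Cdx2 higher and Ceacam1 lower, while Ephb2, Vil1 and Myo1a were not. Cdx2 is the induced gene and set the direction of the fold changes, so its call as higher is no result about the list. The median log2 fold change was 0.13 over the 5 tested members, Cdx2 included, and -0.0011 over all tested genes. Among the 17 members with reads under 10 counts 2 were called higher, Cdh17 and Cyp2c65, and 0 lower. Of the 5345 genes at such levels 4.6% were called, 1.98% higher and 2.62% lower. Without the minimum of 10 counts, 3 members were higher, Cdx2 included, and 1 lower, against 5.95% and 7.13% of all 25177 genes (13.1% in either direction).

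**Figure D1:**
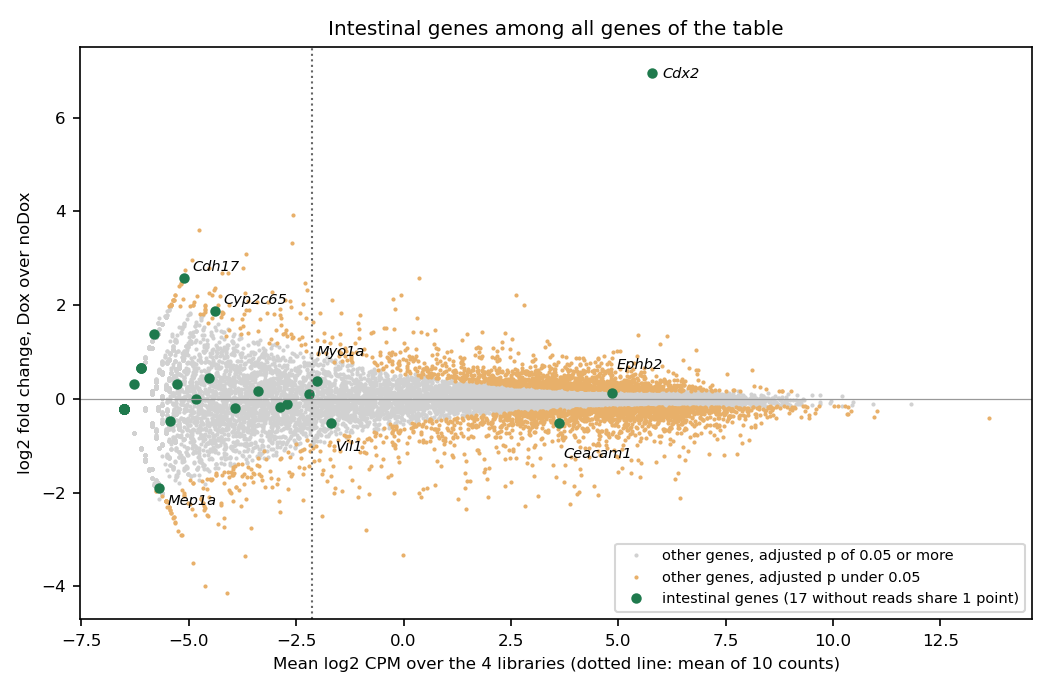
Each gene's log2 fold change of Dox over noDox (vertical axis) against its mean log2 CPM over the 4 libraries (horizontal axis), both from the authors' deposited table, with orange for an adjusted p under 0.05, grey for other genes and green for the intestinal genes. Cdx2 lies alone at the top with a log2 fold change of 6.95, 34 of the 39 intestinal genes lie left of the dotted line at 10 counts, and the 17 without reads share 1 point at -0.21.

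Of the 5 transcription factors, the induced gene was the one with appreciable transcript. Cdx2 (NM_007673, mm10 chr5:147300900-147307249, minus strand) had 612.5 CPM in Dox libraries, against 4.96 CPM in noDox libraries, as group levels implied by the authors' deposited table. That is 124-fold higher in Dox libraries, with a 95% interval of 109-fold to 140-fold, and a log2 fold change of 6.95 ± 0.091 (± standard error) in the authors' deposited table, where the adjusted p is listed at 0. Per kilobase of exon its mean level was 25.7 CPM, the highest among the members. The counts of Cdx2 in single libraries could not be worked out at this level, and transgene and endogenous reads are not parted in the row. In bulk libraries a smaller share of cells with a transcript and less transcript per cell cannot be told apart, which holds for each value that follows.

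The other 4 factors were at or near 0 in both groups. Cdx1, the paralogue that works beside it in the gut, had 1 count, in the second-pair Dox library, and 0 in the other 3. Cdx4, the paralogue of the posterior embryo, Hnf4a, a nuclear receptor of enterocyte differentiation, and Isx, an intestinal homeobox factor, had no read in any library. The 0 counts of each still allow levels up to 0.0656 CPM in a library.

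The genes of brush border structure stayed at low levels with no call. Vil1 (NM_009509, chr1:74409384-74435560, plus strand), which encodes the microvillus actin bundler villin, had 22 and 6 counts in the Dox libraries of the first and second pair, against 17.5 and 15 counts in the noDox libraries. The ranges overlap, and the second-pair Dox library is the low one. Scaled to library size, the log2 difference was -0.05 in the first pair and -1.29 in the second, so the second pair carries the lower estimate. Vil1 had a log2 fold change of -0.52 ± 0.32 and an adjusted p of 0.366 in the authors' deposited table, with an interval of -1.15 to 0.11. The last 50 bases of Vil1 overlap Usp37 on the other strand, a gene at 44.3 CPM.

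Myo1a (NM_001081219, chr10:127705256-127720940, plus strand), the brush border myosin, lay just inside the level for testing with a geometric mean of 10.8 counts. It had 30 and 5.5 counts in Dox libraries, against 17 and 4.5 counts in noDox libraries. Both pairs have more counts with doxycycline, but the pairs differ from each other by more than the groups do. In the authors' deposited table the log2 fold change of Myo1a was 0.37 ± 0.31, with an interval of -0.25 to 0.99 and an adjusted p of 0.61. Cdhr2, a protocadherin of the links between microvilli, had 9 and 4 counts in Dox libraries, against 9.5 and 3 counts in noDox libraries, and its partner Cdhr5 had no reads.

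Among the 5 adhesion and junction genes Ceacam1 fell and Cdh17 was the member with counts in both Dox libraries and in neither noDox library. Ceacam1 (NM_001039185, chr7:25461702-25477625, minus strand) encodes a cell adhesion molecule of the immunoglobulin superfamily that is also found outside the gut. It had 633.5 and 409.5 counts in Dox libraries, against 797 and 475.5 counts in noDox libraries of the first and second pair. In each pair the Dox library has fewer counts although it is the larger library, while across pairs the ranges of the groups overlap. The log2 difference was -0.71 in the first pair and -0.26 in the second, so the fall was larger in the first pair. Whether the pairs differ beyond their spread was not tested.

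The group levels of Ceacam1 were 10.3 CPM in Dox and 14.6 CPM in noDox libraries, a 1.43-fold lower level with an interval of 1.27-fold to 1.60-fold. In the authors' deposited table its log2 fold change was -0.51 ± 0.085 with an adjusted p of 5.27e-08. The other 3 transcripts of Ceacam1 gave -0.51 to -0.53 on the log2 scale in the authors' deposited table, from largely shared reads. When standard errors were widened 2.08-fold, to the spread of t over all tested genes, the adjusted p of Ceacam1 was 0.0695 and the call was lost. The whole of Ceacam1 lies within the antisense gene 4732471J01Rik, at 1.36 CPM. The kit is directional, but the use of strand in counting was not given in the sources used here.

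Cdh17 (NM_019753, chr4:11758157-11817905, plus strand) encodes LI-cadherin, an adhesion protein of intestinal epithelium and a known CDX2 target in intestinal cells. It had 3.5 and 2.5 counts in Dox libraries, against 0 and 0 in noDox libraries, so the groups do not overlap. Its 6 counts against 0 give a ratio after scaling to library size whose exact 95% interval begins at 1.02, for counting error alone, and no fold is given, since 0 allows 3 counts in each noDox library. The authors' deposited table gives Cdh17 a log2 fold change of 2.59 ± 0.71 and an adjusted p of 0.00287, a fitted value that depends on the offset and is no bound. For scale, 141 of 3907 low genes with counts worked out had counts in both Dox libraries and none in noDox, 23 of them called in the authors' deposited table, and 110 showed the reverse, 28 of them called.

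Cldn15, a claudin that forms paracellular sodium channels, lay just outside the level for testing, with a geometric mean of 9.37 counts. It had 25.5 and 4 counts in Dox libraries, against 17.5 and 4 counts in noDox libraries. The first-pair libraries hold most of the counts in both groups, and the groups overlap. Gpa33, a surface antigen of intestinal epithelium, had 7 and 0.5 counts in Dox libraries, against 4 and 2 counts in noDox libraries, more in 1 pair and fewer in the other. Cldn2, a claudin of crypt cells, had no reads.

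**Figure D2:**
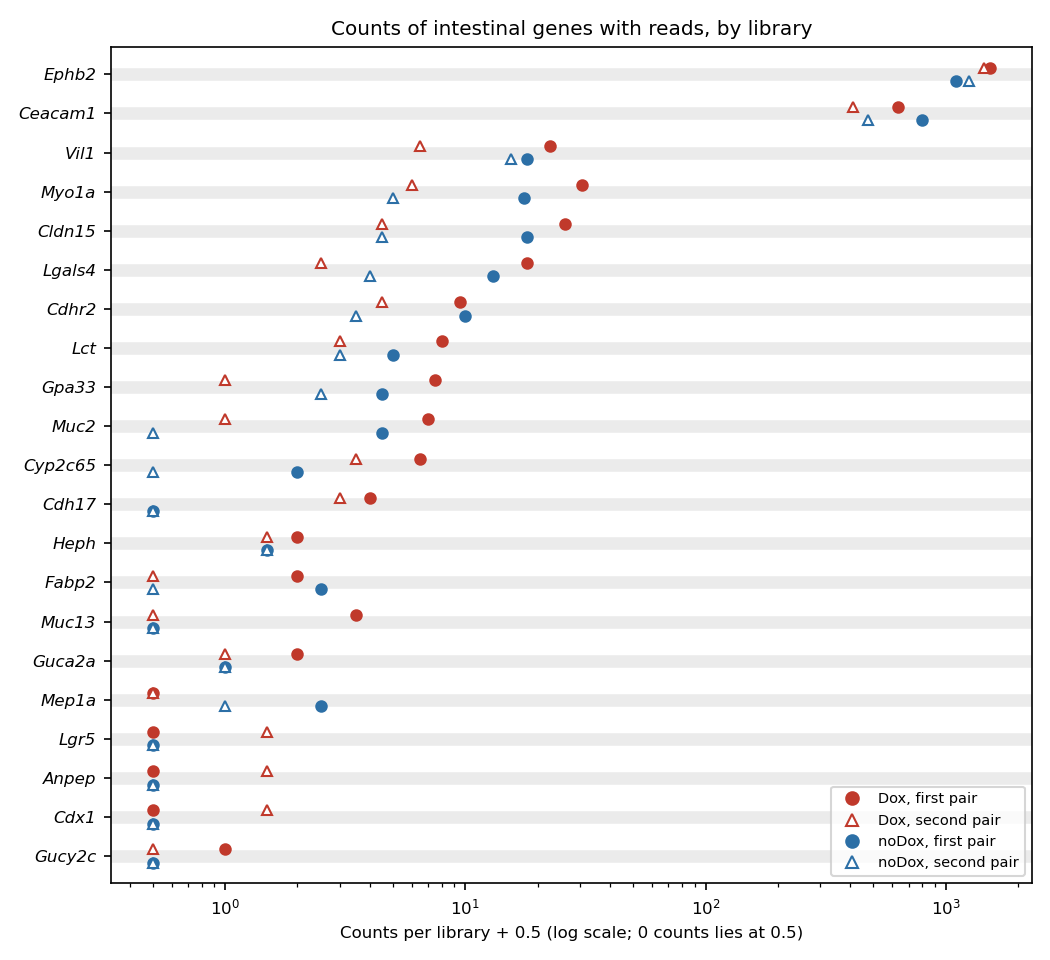
Counts in each of the 4 libraries, plus 0.5 on a log axis, for the 21 intestinal genes whose counts could be worked out, with Dox in red and noDox in blue, circles for the first pair and triangles for the second. Ephb2 and Ceacam1 lie at 409.5 counts or more in every library, while the other 19 genes stay at 30 counts or fewer; at Cdh17 both Dox points lie above the noDox points, which share the place of 0 counts.

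The 7 digestive enzymes and proteases held few reads or none, and none reached the level for testing. Cyp2c65 (NM_028191, chr19:39061006-39093948, plus strand), a cytochrome P450 of the Cyp2c cluster that is expressed in the mouse gut, had 6 and 3 counts in Dox libraries, against 1.5 and 0 counts in noDox libraries. Before scaling both Dox libraries lie above both noDox libraries, and each Dox library is the larger of its pair. How many of all low genes show this pattern was not counted. The ratio of its counts was 5.19 after scaling to library size, with an exact 95% interval of 0.806 to 37.1 once counts were rounded up to whole numbers. In the authors' deposited table Cyp2c65 had a log2 fold change of 1.87 ± 0.59 and an adjusted p of 0.0131. The interval from the counts thus spans 1 while the authors' test, which pools the spread over genes, calls it. On the log2 scale its difference was 1.33 in the first pair and 2.77 in the second. The second-pair value comes from 3 against 0 counts and so depends on the offset.

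Lactase, encoded by Lct, had 7.5 and 2.5 counts in Dox libraries, against 4.5 and 2.5 counts in noDox libraries, which overlap. Mep1a, the alpha subunit of the protease meprin, had 0 counts in both Dox libraries, against 2 and 0.5 counts in noDox libraries. Its p of 0.0116 became an adjusted p of 0.0704 in the authors' deposited table, and no fold is given at 2.5 counts in all. Anpep, an aminopeptidase, had 1 count, in the second-pair Dox library. Sis (sucrase-isomaltase), Alpi (intestinal alkaline phosphatase) and Tmprss2 (a transmembrane serine protease) had no reads.

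The promoters of Sis and Lct are among the best known CDX2 targets in intestinal cells, and their sequences are given with those of Fabp1, the member with most matches, and of Cyp2c65, 1 of the called members. Each shows the 250 bases before the gene's start on the gene's own strand, from RefSeq on GRCm38.p6, the release of mm10, with capitals where TTTAT occurs on either strand (ATAAA marks the opposite one).
Sis, chr3:72967864-72968113, minus strand: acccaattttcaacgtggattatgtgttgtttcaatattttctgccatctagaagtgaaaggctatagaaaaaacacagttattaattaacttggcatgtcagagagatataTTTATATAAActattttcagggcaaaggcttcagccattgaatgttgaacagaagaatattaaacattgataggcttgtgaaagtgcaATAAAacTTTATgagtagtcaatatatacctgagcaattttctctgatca
Lct, chr1:128328319-128328568, minus strand: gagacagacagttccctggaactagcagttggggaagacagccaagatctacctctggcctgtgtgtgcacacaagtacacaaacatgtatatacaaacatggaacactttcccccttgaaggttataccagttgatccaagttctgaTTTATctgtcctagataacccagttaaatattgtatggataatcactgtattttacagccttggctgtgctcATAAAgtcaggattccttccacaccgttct
Fabp1, chr6:71199629-71199878, plus strand: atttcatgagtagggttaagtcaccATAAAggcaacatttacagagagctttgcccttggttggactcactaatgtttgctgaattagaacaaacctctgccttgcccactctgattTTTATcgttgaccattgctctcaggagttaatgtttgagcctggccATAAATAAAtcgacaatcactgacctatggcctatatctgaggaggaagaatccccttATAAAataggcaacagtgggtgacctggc
Cyp2c65, chr19:39060756-39061005, plus strand: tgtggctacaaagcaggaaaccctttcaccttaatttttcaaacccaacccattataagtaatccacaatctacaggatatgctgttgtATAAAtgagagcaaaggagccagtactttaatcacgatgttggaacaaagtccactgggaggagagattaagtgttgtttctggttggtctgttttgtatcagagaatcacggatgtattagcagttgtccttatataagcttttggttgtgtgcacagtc

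The longer motif TTTATG, which contains TTTAT, lies 43 bases before the start of Sis on the printed strand. It begins 31 bases before the start of Lct, and 226 and 88 bases before that of Fabp1, in each case on the opposite strand. Cyp2c65 has TTTAT 161 bases before its start, on the opposite strand, and no TTTATG. Over the members, promoter windows were used for 33 genes, 36 windows in all, with no window used here for Cdh17, Cdx1, Gucy2c, Heph, Lgr5 and Tff3, and 7 of them (19.4%) held TTTATG on either strand, against 10.8% of 32851 promoter windows of the same length. TTTAT was in 17 of the 36 windows (47.2%), against 37.3% of all windows. A match is a description of these letters and not a binding site. Other A/T-rich promoter elements were not told apart from CDX-type sites. The Lct match lies close to the start, as do TTTAT matches of Krt20, Slc26a3 and Alpi, at 28, 29 and 33 bases. Whether any match is a site used in intestinal cells was not examined. Of the promoters shown, those of Sis and Fabp1 belong to genes with no reads in either group, and Ceacam1, Vil1, Ephb2, Myo1a and Cdx2 had neither motif in their windows. The window of Cdx2 is that of the endogenous gene and not of the transgene. Whether a motif goes with a change of level was not tested.

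Genes of lipid and iron handling and of ion transport were at or near 0. Fabp1, a fatty acid binding protein of liver and gut, had no reads. Its intestinal relative Fabp2 had 1.5 and 0 counts in Dox libraries, against 2 and 0 counts in noDox libraries. Heph, the ferroxidase hephaestin that helps export iron from enterocytes, had 1.5 and 1 counts in Dox libraries, against 1 and 1 in noDox libraries. These counts overlap between groups and allow no statement of change. Slc26a3, a chloride-bicarbonate exchanger, and Cftr, the chloride channel of cystic fibrosis, had no reads.

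Of the guanylin pathway, in which a peptide from epithelial cells acts on guanylate cyclase C to drive fluid secretion, both members had a trace. The peptide precursor Guca2a had 1.5 and 0.5 counts in Dox libraries, against 0.5 and 0.5 counts in noDox libraries. Its receptor Gucy2c had 0.5 counts in the first-pair Dox library and 0 elsewhere, the lowest total of any member with reads.

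Among mucus and hormone genes, Muc2, the gel-forming mucin of goblet cells, had 6.5 and 0.5 counts in Dox libraries, against 4 and 0 counts in noDox libraries. Muc13, a mucin anchored in the membrane, had 3 counts in the first-pair Dox library and 0 elsewhere, with an adjusted p of 0.254 in the authors' deposited table. The groups overlap for Muc2, and the counts of Muc13 lie in 1 library. Tff3, the trefoil peptide of goblet cells, and Gcg, the proglucagon gene of enteroendocrine cells, had no reads. Of the differentiated surface cell genes, Krt20, a keratin, had no reads, and Lgals4, a galectin, had 17.5 and 2 counts in Dox libraries, against 12.5 and 3.5 counts in noDox libraries.

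Of the 5 crypt stem cell genes 1 was tested. Ephb2 (NM_001290753, chr4:136647541-136836012, minus strand) encodes an ephrin receptor that positions cells along the crypt and is also expressed in many other tissues. It had 1530 and 1439.5 counts in Dox libraries, against 1101.5 and 1252 counts in noDox libraries. Both Dox libraries have more counts than both noDox libraries before scaling, and after it the log2 difference was 0.10 in the first pair and 0.16 in the second. Group levels of Ephb2 were 30.2 CPM in Dox and 27.6 CPM in noDox libraries. The log2 fold change was 0.13 ± 0.074 in the authors' deposited table, with an interval of -0.01 to 0.27 and an adjusted p of 0.3, so a rise of up to 1.21-fold lies within the interval. Lgr5, the receptor that marks crypt stem cells, had 1 count, in the second-pair Dox library, and Olfm4, a secreted glycoprotein, Ascl2, a stem cell transcription factor, and Prom1, the membrane protein prominin, had no reads.

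**Figure D3:**
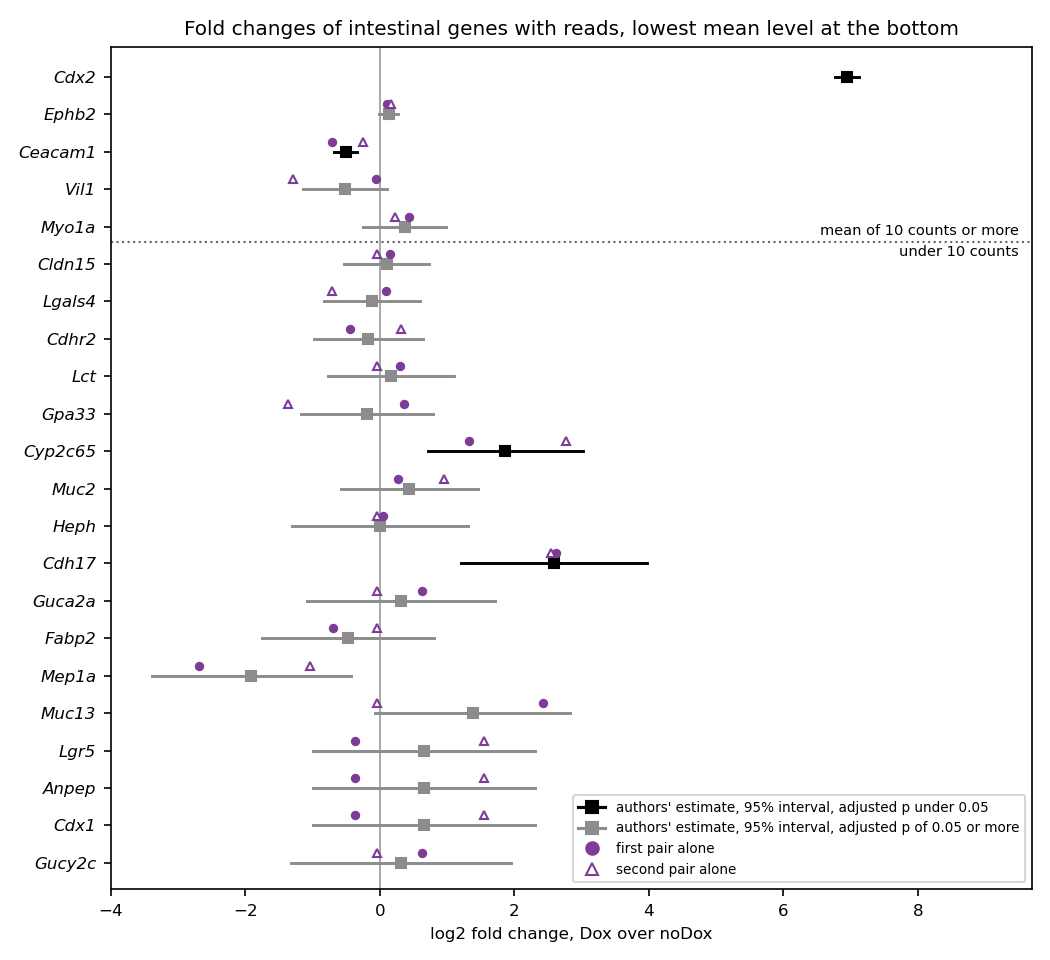
Log2 fold changes of Dox over noDox for the 22 intestinal genes with reads (horizontal axis), with squares and bars for the estimate and 95% interval from the authors' deposited table, black where the adjusted p is under 0.05, and purple marks for each pair alone. Under the dotted line (geometric mean under 10 counts) the squares and the purple marks depend on the offset added to the counts. The 2 pairs lie close together for Ephb2, and for Cdh17, whose noDox counts are 0 in both pairs. They lie over 1 log2 unit apart for genes such as Vil1, Gpa33 and Cyp2c65.

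Per kilobase of exon, the mean level over the 4 libraries was 3.3 CPM for Ceacam1 and 2.65 CPM for Ephb2, and the next members were far lower, with 0.117 CPM for Cldn15, 0.107 CPM for Lgals4, 0.101 CPM for Vil1 and 0.0746 CPM for Myo1a. The order among these last 4 rests on 35.5 to 60.5 counts each over all libraries. The 17 members with reads under 10 counts had totals of 0.5 to 51 counts. Summed over them, the Dox libraries held 90.5 and 23.5 counts, against 59 and 17 counts in noDox libraries of the first and second pair. The 3907 low genes, which include 13 of these members, held 6109 and 2272.5 counts in Dox libraries, against 4582.5 and 2374 counts in noDox libraries. They leave out Cldn15, Lgals4, Cdhr2 and Lct, the members with most counts among the 17, with totals of 51, 35.5, 25.5 and 17. The 2 sets thus differ in level. Of the 17 members 6 had counts in Dox libraries alone, 1 in noDox libraries alone and 5 in 1 library. Of the 3907 low genes 23.9% had counts in Dox libraries alone, 17.7% in noDox libraries alone and 35.1% in 1 library, and Dox libraries are the larger of each pair. The first pair held 78.7% of the counts of the 17 members, against 69.7% over the 3907 low genes and 60.4% over 314 higher genes. This pooled share does not hold for each member, since Cdx1, Anpep and Lgr5 had counts in the second pair alone. What part depth or the libraries of that pair have in these counts was not tested.

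Other genes of intestinal biology, 90 in lists by role, were read beside the members. In these lists 29 had no reads and 30 were tested, of which 7 were higher and 10 lower, beside 11.3% higher and 13.4% lower over all tested genes, and their median log2 fold change was -0.06. With standard errors widened 2.08-fold 5 were higher and 3 lower. Of 24 regulators of gut development, 8 had no reads and 9 were tested, with a median log2 fold change of 0.35. Of the 9 tested, 5 were higher and 2 lower, beside 11.3% higher and 13.4% lower over all tested genes. With widened standard errors 3 were higher and 2 lower. In the authors' deposited table Hes1, a Notch target, had a log2 fold change of 1.17 ± 0.093, and Tcf7l2, the Wnt effector of the crypt, one of 0.66 ± 0.069. Sox9, a factor of crypt cells and of cartilage, fell by 0.87 ± 0.061 and Klf4, a factor of goblet cells, by 0.81 ± 0.062 on the log2 scale in the authors' deposited table. Each of these genes is also expressed in other tissues, and the list's Hnf4g, an enterocyte nuclear receptor, and Atoh1, a factor of secretory cells, had no reads.

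Of 13 crypt and Wnt genes 10 were tested, of which 1 was higher and 7 lower, beside 13.4% lower over all tested genes, with a median log2 fold change of -0.25. With widened standard errors 1 was higher and 1, Slc12a2, lower. Axin2, a Wnt target and feedback inhibitor, rose by 1.26 ± 0.15 on the log2 scale in the authors' deposited table. Slc12a2, a sodium-potassium-chloride cotransporter, fell by 0.56 ± 0.063 on the log2 scale in the authors' deposited table. Log2 fold changes there were -0.42 ± 0.071 for Cdca7, a Myc target, and -0.39 ± 0.070 for Znrf3, a ligase that removes Wnt receptors, and these calls in the authors' deposited table were lost with widened standard errors (adjusted p 0.0777 and 0.118). Of 13 brush border and transport genes 6 were tested, of which 1 was higher and 1 lower, beside 11.3% higher and 13.4% lower over all tested genes. Slc9a3r1, a scaffold of microvillar membrane proteins, was higher by 1.01 ± 0.072 in the authors' deposited table, while Myo5b, a motor of apical recycling, had -1.14 ± 0.24, both on the log2 scale. The call of Myo5b was lost with widened standard errors (adjusted p 0.24).

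The enterocyte and secretory lists showed no call among tested genes. Of 24 enterocyte genes 6 had no reads and 4 were tested, and of 16 secretory genes 11 had no reads and 1 was tested. Of these 5 tested genes, 0 were called at the adjusted threshold and 0 had an unadjusted p under 0.05 by limma's test in the authors' deposited table. Of 10 general epithelial markers 4 (Cldn3, Cldn4, Krt18 and Esrp1) had no reads. The 2 tested, Cdh1 and Grhl2, were lower (Cdh1 alone with widened standard errors), beside 13.4% lower over all tested genes. The list summed to 2.38 CPM in Dox and 4.55 CPM in noDox libraries. Of 6 markers of blood, endothelial, glial and smooth muscle cells 3 were tested. Of these 1 was higher (0 with widened standard errors), beside 11.3% higher over all tested genes. The 6 markers summed to 9.36 CPM in Dox and 8.96 CPM in noDox libraries. The part of other cells in the members' counts was not tested.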

How the data were processed

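Nuclear RNA of 2 Dox and 2 noDox libraries was made with a directional kit, per the labels' protocols. Tools named, without their roles, in the submitters' processing notes are limma, edgeR, HOMER 4.10, Picard, SAMtools 1.10 and STAR 2.7.1a, with the build mm10. The authors' deposited table holds 40739 transcripts with a log2 fold change, a mean log2 CPM, a t score, a p-value and an adjusted p-value, per the file headers, and no column of a single library. The header does not name the direction of the fold change. How reads were assigned to transcripts was not given in the sources used here.

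Standard errors were computed as the log2 fold change over t, and intervals assume normal errors. For each gene the transcript with the highest mean level was used. Genes with a geometric mean of at least 10 counts (mean log2 CPM of at least -2.12) were tested, by the authors' adjusted p at 0.05. The 9211 transcripts without reads share a log2 fold change of -0.21, which comes from the added offset.

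Counts per library were worked out in Python 3.11.15 (numpy 2.4.6, scipy 1.17.1, sympy 1.14.0). Relative to the lowest level, that of all 14358 low transcripts is a whole-number product over the 4 libraries (tolerance 0.001). Each library enters as its count plus 0.5, in units of 0.5. For the 9211 transcripts without reads the product is 1 by definition, so the check bears on the 5147 with reads. Low transcripts and low genes are those with this product under 2000. The counts with the deposited fold change and standard error under limma's precision weights, with a term joining the libraries in 2 pairs, were kept where the misfit was under 0.0002 and the next solution was at least 3 times worse. Of 5147 low transcripts with reads 99.7% were fitted and 96.8% had 1 solution. On simulated tables (limma 3.58.1, R 4.3.3, with 600 drawn of 12000 transcripts) 533 were accepted and 533 of these were right. The drawn transcripts had smaller products than Ceacam1 and Ephb2, so the counts of these members were not checked in this way. The simulated tables were made with the same weights, pairs and offset, and so could not check that premise.

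The planned use of the fewest and most reads per row gave way to these counts. The members and lists were chosen with earlier results of these data known. Named genes are the members, and of each wider list the called genes with the smallest p, at most 4.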

Additional observations from a re-analysis of the deposited data

How the results depend on the processing

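With no minimum on reads 3 members were higher in place of 1, the others being Cdh17 and Cyp2c65. With standard errors widened 2.08-fold 190 genes were higher and 386 lower in place of 1393 and 1654, 0 members were lower in place of 1, and 3 genes of the wider lists were lower in place of 10. Ceacam1 then kept its log2 fold change of -0.51 at an adjusted p of 0.0695. The first pair alone gave -0.71 for Ceacam1 and -0.0533 for Vil1 on the log2 scale. The second pair alone gave -0.26 for Ceacam1, -1.29 for Vil1 and 2.77 for Cyp2c65. That value of Cyp2c65 comes from 3 against 0 counts and depends on the offset. These fits were chosen after seeing the data, and the cause of the difference between pairs was not tested. Minimums of 5 and 50 counts, adjustment over the tested genes, centring on their median and the longest transcript moved no count by over 1.5 times and changed no member's call among those it could be run on. No paired analysis was possible because no column carries the labels' replicate numbers; the deposited fold changes and p-values already come from a fit with a term for the 2 pairs, and a fit without it was not run. Leaving out single libraries was not run, since counts were worked out for a part of the transcripts. Under about 10 counts, depth limits what can be said of 34 of the 39 members.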

Other observations

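Outside the members, genes of the epithelial and enterocyte lists with few reads were also called in the authors' deposited table, and they are named here after their values were seen. Krt19, a keratin of simple epithelia including the gut, had 20.5 and 1 counts in Dox libraries, against 0 and 0 counts in noDox libraries, with an adjusted p of 2.07e-07 in the authors' deposited table. Nearly all of its counts lie in the first-pair Dox library. Abcg8, a sterol transporter of enterocytes and liver, had 0 and 0 counts in Dox libraries, against 3 and 1 counts in noDox libraries, with an adjusted p of 0.00794 in the authors' deposited table. Over the 3907 low genes the first-pair Dox library held counts of 2826 genes and the second-pair Dox library of 1800, against 2490 and 1796 genes in the noDox libraries.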
